A study of Caenorhabditis elegans with 16 samples.

Results

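A set of 145 protein-coding genes of Caenorhabditis elegans was examined that carry only a sequence name, such as F46F2.3, in the deposited gene table and whose transcripts were far less abundant in fasted than in fed wild-type animals. The members were chosen from the wild-type libraries: the mean level in fed wild type was at least 5 CPM (counts per 1e6 reads of the library) and at least 4 times the mean in fasted wild type. These limits kept 145 of 9928 sequence-named protein-coding genes, and of 3887 that reached the fed level, in a table of 21982 genes. T24B8.5 and C17H12.6 were left out by the rule. The wild-type fasting difference therefore defines the set and is given below as a description without a test. The separate measurement is the fasting change in the other genotype, a contrast that shares no library with the choice of genes. Its filter, scaling and spread were estimated from all 16 libraries.

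RNA came from about 1000 whole adult animals per library, in 4 groups of 4 replicates. Animals labelled H3K27ac-deficient were fasted, or fed ad libitum, for 24 h between adult day 1 and day 2. They combined a mutation of jmjd-3.1 with cbp-1 RNAi given by feeding from the first larval stage. The sample titles give the allele as gk384 and the genotype field gives gk387. N2 Bristol wild-type animals were likewise fasted or fed, on bacteria with the empty RNAi vector (EV). Mutation and RNAi always occurred together, so their separate effects cannot be told apart. The growth protocol names RNAi plates, while the treatment protocol names plates of E. coli OP50-1 up to adult day 1. All libraries were grown at 20 °C and are labelled batch 1.

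As background, a C. elegans sequence name joins the clone in which a gene was sequenced to a running number, and a gene keeps it as its public name until a symbol is given for a function, a family or a mutant. Genes with close sequence names on 1 clone are usually neighbours. Fasting is known to lower many transcripts of the worm intestine and epidermis, including digestive enzymes, yolk proteins, cuticle collagens and effectors of defence against microbes. Acetylation of histone H3 at lysine 27 marks active promoters and enhancers. CBP-1 is the worm homologue of the acetyltransferases CBP and p300, and JMJD-3.1 removes methyl groups from the same lysine.

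Neither targeted transcript was lower in the libraries labelled as deficient. The cbp-1 level was 295 ± 22.6 CPM in fasted and 215 ± 26.7 CPM in fed labelled-deficient libraries, against 159.6 ± 20.1 CPM in fasted and 86.6 ± 13.3 CPM in fed wild type (SD, n = 4). For jmjd-3.1 the levels were 23.4 ± 1.45 CPM fasted and 18.0 ± 2.54 CPM fed in labelled-deficient libraries, against 21.4 ± 2.93 CPM fasted and 10.4 ± 0.839 CPM fed in wild type (SD, n = 4), counted over the whole gene and not over the mutated part. The groups are therefore called by their labels throughout. Libraries held 16446081 to 27792762 estimated reads. Replicates are independent experiments per the labels. In whole animals, fewer cells of a type and less RNA per cell cannot be told apart.

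Of the 145 genes, 23 carry a symbol in the gene name table used here. They include 6 of the nspg family (nematode-specific peptide family, group G), nspg-6, nspg-7.1, nspg-9, nspg-10, nspg-13 and nspg-14. Others with a symbol are clec-209 (F56A4.2), of the C-type lectin-like family, irg-8 (ZK6.11), an infection response gene, bcf-1 (F57F4.4), named as a bacterial colonization factor, the cathepsin A-like ctsa-1.2 and ctsa-3.1, the carboxylesterases cest-2.2 and cest-13, and the claudin-like clc-11 and clc-19. The remaining 122 have no symbol there, and no role is given to them here.

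Taken as a sum, the 145 genes took 0.170 ± 0.00842% of the reads in fasted and 0.771 ± 0.0759% in fed labelled-deficient libraries (SD, n = 4). In wild type the sum was 0.274 ± 0.00871% fasted and 2.12 ± 0.221% fed (SD, n = 4). No library of any group overlapped another group in this sum: labelled-deficient libraries ran between 0.159% and 0.178% fasted and between 0.666% and 0.840% fed, and wild-type libraries between 0.262% and 0.282% fasted and between 1.83% and 2.36% fed. The 5 genes with the highest levels held 34.0% of the summed CPM in fed wild type and the 10 highest held 46.5%.

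**Figure D1:**
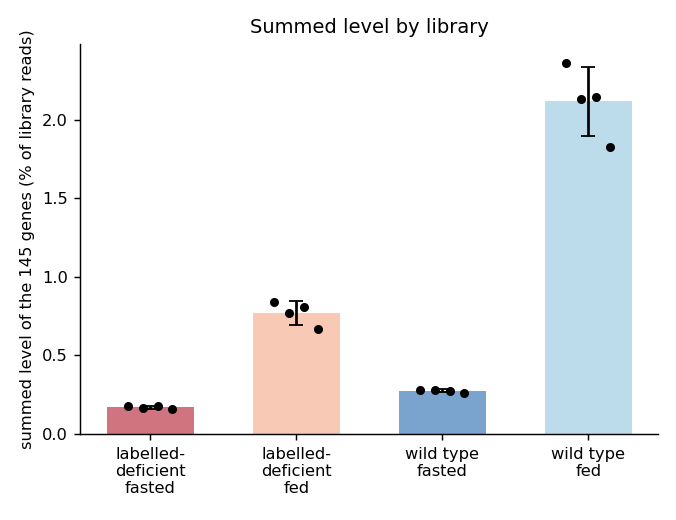
Summed level of the 145 genes as percent of the reads of each library. Bars are group means from 0, points are the 4 libraries of each group and error bars are SD. Fed wild-type libraries lie at 1.83% to 2.36%, and fed labelled-deficient libraries at 0.666% to 0.840%.

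The first question was whether fasting lowered the same genes in labelled-deficient animals. It did for most of them. With edgeR's quasi-likelihood test over 15840 genes, 130 of the 145 were lower in fasted than in fed labelled-deficient libraries at an adjusted p under 0.05, which is 89.7% of the set against 15.7% of all genes tested. None was called higher, against 19.6% of all genes tested. By the same test 1 member, F13B6.3, was higher at an unadjusted p under 0.05. DESeq2 and limma voom also called 0 members higher. A fit with a replicate block, described at the end, called 2 higher (F13B6.3 and C45E5.4). The direction of the background depends on scaling: of all genes tested, 2485 were lower and 3109 higher with TMM, against 2966 lower and 2213 higher with DESeq2 size factors, and 2159 lower and 3959 higher with library size alone.

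The size of the change was also large. The median log2 change of the 145, fasted minus fed on the TMM scale, was -1.99 with quartiles of -3.03 and -1.35, where the median of all genes tested was 0.11. The fall was at least 2-fold in 118 genes (81.4%, against 6.31% of all genes tested) and at least 4-fold in 72 (49.7%, against 1.97%). All 4 fasted libraries lay below all 4 fed libraries in 122 genes (84.1%), against 12.5% of all genes tested. All 145 passed the filter on low counts, which used all 16 libraries and so also the fed wild-type level that the choice of genes required. With labelled-deficient libraries alone, 142 members were tested and 132 were called lower.

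Genes with a symbol in the deposited table gave similar counts under the same limits. There were 200 such genes, of which all but 14 (93.0% called) were lower in fasted labelled-deficient libraries, with a median log2 change of -2.23. These sets were not tested against each other. Within the sequence-named set, the share called was higher at higher fed wild-type levels. Of the 49 genes with the highest fed wild-type level, 49 were called lower and the median log2 change was -2.75. Of the 48 in the middle, 43 were called with a median of -1.92, and of the 48 lowest, 38 were called with a median of -1.55. This split uses the level that the choice of genes required. The 48 lowest had 5.01 to 22.9 CPM in fed wild type, and a call is harder to reach with fewer reads. The part of read number in these shares was not tested. Across 143 genes with reads in all groups concerned, log2 fasting changes in labelled-deficient and wild-type libraries were related with r = 0.54 (Pearson) and rho = 0.47 (Spearman). This is a correlation across genes, which are not independent replicates, and the genes share their libraries.

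**Figure D2:**
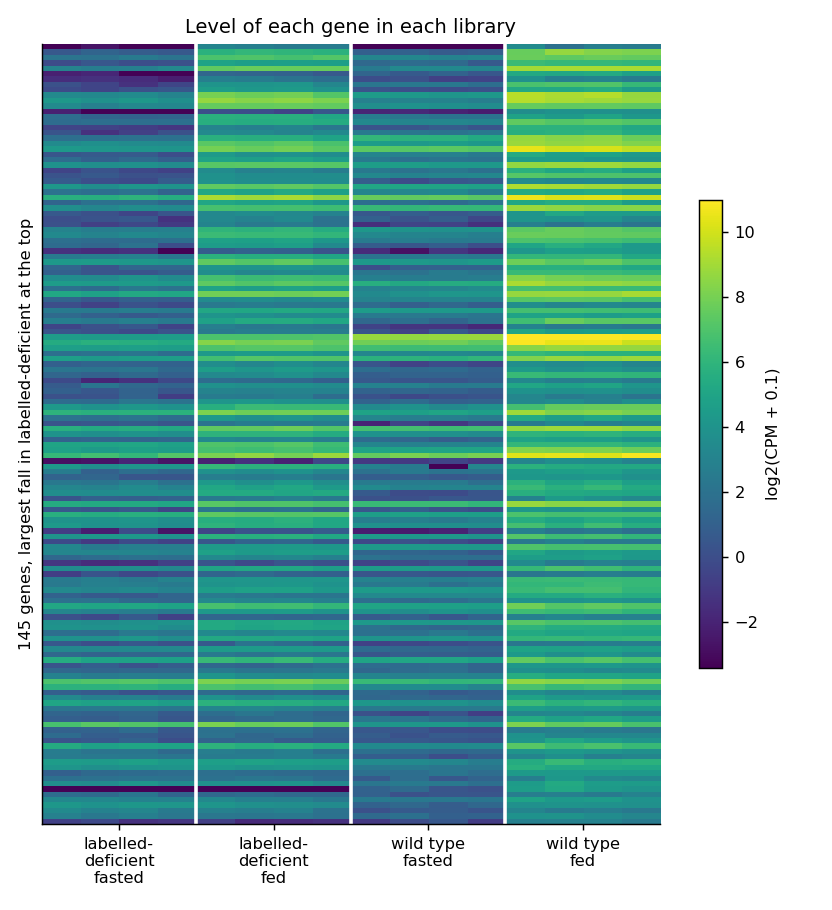
Level of each of the 145 genes (rows, ordered by the log2 change in labelled-deficient libraries) in each of the 16 libraries (columns), as log2 of CPM plus a pseudocount of 0.1. Most rows are darker in the fasted than in the fed block of the same genotype, and fed wild type is the brightest block.

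Among the most abundant members, lengths were taken into account by Salmon TPM, an abundance per transcript length. F54D5.4 had the highest value in fed wild type, at 2985 ± 684 TPM, followed by clec-209 with 1716 ± 69.2 TPM and nspg-7.1 (T20D3.2) with 1652 ± 338 TPM (SD, n = 4). These 3 neighbours in the order overlapped in part: the spread of nspg-7.1 covered the mean of clec-209. C17H12.8, nspg-6, D1086.3, T04F8.8 and F46F2.3 came next, between 606 and 900.5 TPM in fed wild type.

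F54D5.4 lies on chromosome II at bases 11569818 to 11571004 (WBcel235, plus strand). It had 44.0, 52.7, 49.4 and 41.6 CPM in fasted labelled-deficient libraries, against 334, 251, 272 and 182 CPM in fed ones. In wild type it had 239, 222, 231 and 174 CPM fasted and 1942, 1491, 1526 and 924 CPM fed. The groups did not overlap within a genotype, and fed labelled-deficient libraries lay in the range of fasted wild type or above it. The log2 fasting change in labelled-deficient libraries was -2.51 (SE 0.18, edgeR adjusted p = 2e-10).

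The nspg genes, named as a nematode-specific peptide family, all fell in labelled-deficient animals. The 6 genes were lower in fasted than in fed libraries, with log2 changes between -3.65 (nspg-13, Y34B4A.9) and -2.50 (nspg-10, F19C7.1). Their fed wild-type levels ranged from 333 to 1652 TPM. In fed labelled-deficient libraries they stood at 31.4% to 40.5% of fed wild type, a narrow band beside the quartiles of 27.3% and 59.5% for the whole set. F56C9.7 (nspg-6) and F19C7.1 each overlap another gene, F56C9.3 and col-110, and reads shared between such pairs may be assigned to either.

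Some of the largest falls in labelled-deficient animals took genes to near the detection limit. The steepest was that of C32H11.9, which has the symbol cld-1: 0, 1, 0 and 0 reads in fasted labelled-deficient libraries, against 188, 195, 120 and 120 reads in fed ones. Pooled and corrected for depth, the fed level was 503 times the fasted level, with a 95% interval of 90.0 to 19908 that covers counting error only. In wild type no read was found in the 4 fasted libraries, and the fed level was at least 45.3-fold higher when each fasted library is set at a floor of 3 reads.

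F46F2.3, on the X chromosome at bases 15259579 to 15260287, had the largest wild-type ratio among genes with reads in both feeding states, at 166. It had 1.39, 2.26, 1.73 and 1.46 CPM in fasted labelled-deficient libraries, against 55.5, 71.3, 64.3 and 55.1 CPM in fed ones. In wild type the values were 1.96, 2.10, 1.58 and 1.80 CPM fasted and 203, 416, 327 and 287 CPM fed. The fasted values of both genotypes overlapped, while the fed values did not. The log2 fasting change in labelled-deficient libraries was -5.23 (SE 0.23, edgeR adjusted p = 3.5e-14).

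bcf-1 (F57F4.4) showed the same arrangement. It had 8.16, 6.31, 7.36 and 10.3 CPM in fasted and 182, 209, 198 and 201 CPM in fed labelled-deficient libraries. Wild type had 5.40, 10.5, 10.7 and 9.09 CPM fasted and 506, 549, 548 and 561 CPM fed. Fasted levels again overlapped between the genotypes and fed levels did not. The log2 fasting change in labelled-deficient libraries was -4.67 (SE 0.19, edgeR adjusted p = 6.6e-15).

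irg-8 (ZK6.11), the infection response gene, differed in its fasted level. It had 18.9, 14.9, 19.5 and 13.7 CPM in fasted labelled-deficient libraries, all above the 7.43, 8.16, 8.13 and 6.66 CPM of fasted wild type. Fed levels were 424, 339, 380.2 and 289 CPM in labelled-deficient libraries and 661, 545, 495 and 433 CPM in wild type, which did not overlap. The log2 fasting change in labelled-deficient libraries was -4.46 (SE 0.15, edgeR adjusted p = 1.7e-16).

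The other members with the largest falls have no symbol. F28B4.3 changed by -4.85 (SE 0.14) and K08D8.4 by -4.76 (SE 0.18) on the log2 scale. F01D5.3 (-4.65), H20E11.2 (-4.53) and C45B2.1 (-4.50) followed, all with low levels in fasted labelled-deficient libraries: the mean was 0.0750 CPM for F01D5.3, 0.226 CPM for H20E11.2 and 0.654 CPM for C45B2.1. A floor of 3 reads corresponds to 0.108 to 0.182 CPM in these 16 libraries.

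**Figure D3:**
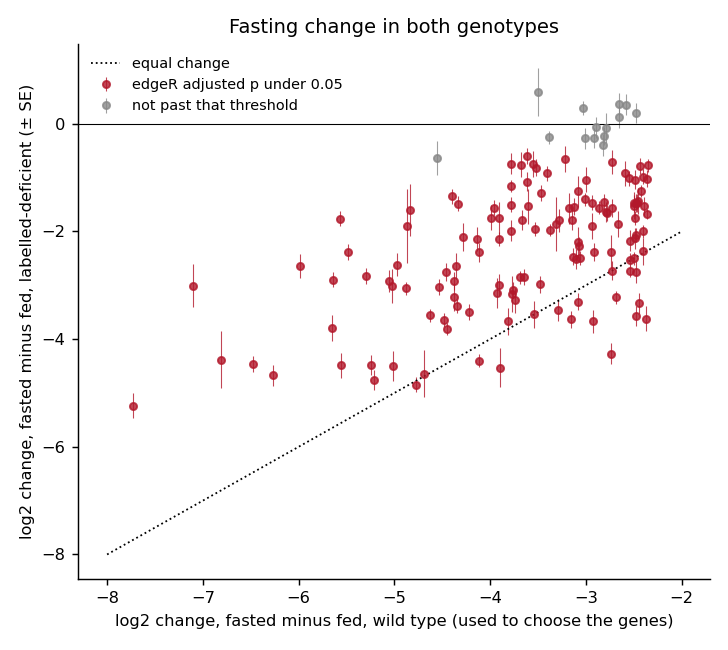
Log2 change, fasted minus fed, on the TMM scale in labelled-deficient libraries (vertical axis, with SE) against wild type (horizontal axis, used to choose the genes) for 143 genes. Most points lie below 0 and above the dotted line of equal change, and red points passed an edgeR adjusted p of 0.05.

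Not every member fell. The 15 genes without a call include F56A4.3, for which all 8 labelled-deficient libraries were empty, and 14 with reads. Mean CPM was higher in fasted than in fed labelled-deficient libraries for 6 of them: F13B6.3, C45E5.4 (cpg-18, named as a chondroitin proteoglycan), F40F8.4, C10C5.3, F59A7.5 and Y47H9C.1. F13B6.3 had 18.6, 15.4, 18.9 and 17.5 CPM in fasted and 16.98, 14.1, 12.9 and 11.8 CPM in fed labelled-deficient libraries, which overlap. In wild type it had 2.07, 2.69, 1.72 and 2.60 CPM fasted and 14.0, 15.7, 14.7 and 14.2 CPM fed. The fasted wild-type libraries thus stood alone at the low level. The log2 fasting change in labelled-deficient libraries was 0.29 (SE 0.13, edgeR adjusted p = 0.089).

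cpg-18 had the same arrangement, with 11.3, 7.87, 9.24 and 5.65 CPM in fasted and 7.42, 6.73, 7.73 and 3.93 CPM in fed labelled-deficient libraries. Wild-type values were 1.01, 1.51, 1.72 and 1.15 CPM fasted and 8.31, 5.68, 6.57 and 5.14 CPM fed. The log2 fasting change in labelled-deficient libraries was 0.35 (SE 0.20, edgeR adjusted p = 0.17). For F40F8.4, C10C5.3, F59A7.5, R102.2 and F20A1.1 (spig-1) the picture was another: fed labelled-deficient means were 32.6% to 51.1% of fed wild type, fasted means were 169% to 293% of fasted wild type, and the log2 fasting changes within labelled-deficient libraries lay between -0.08 and 0.37. Y47H9C.1 was near the floor in labelled-deficient libraries, with 13, 13, 5 and 6 reads fasted and 12, 6, 5 and 6 reads fed, which overlap (log2 change 0.59, SE 0.44, edgeR adjusted p = 0.31).

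The remaining genes without a call were T02B11.3, K10D11.5, Y43C5A.7, F09B12.3, Y69A2AR.22 and F35B12.9, with log2 changes between -0.64 and -0.22. Of these 6, K10D11.5, T02B11.3, Y43C5A.7 and Y69A2AR.22 were called lower under at least 1 other setting. A missed threshold does not show that these genes kept their level.

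**Figure D4:**
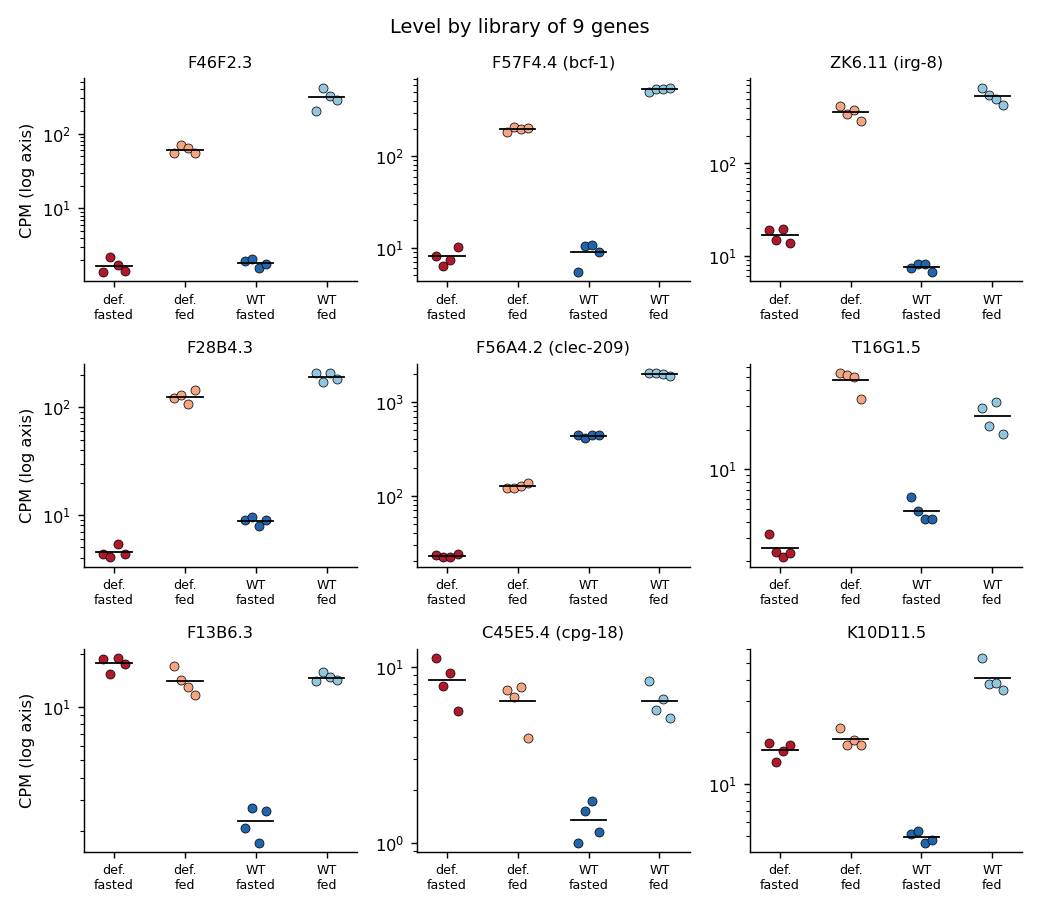
Level in CPM (log axes) of 9 genes in each library, in the order fasted and fed labelled-deficient (def.), then fasted and fed wild type (WT). Points are libraries and lines are group means. F46F2.3, bcf-1, irg-8, F28B4.3, clec-209 and T16G1.5 are lower in fasted than in fed libraries of both genotypes, while F13B6.3 and cpg-18 are low in fasted wild type alone. K10D11.5 is lowest in fasted wild type, intermediate in both labelled-deficient groups and highest in fed wild type.

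The second description concerns the genotypes at the same feeding state. These differences share the wild-type libraries that chose the genes, so they carry no test, and a high fed wild-type value was a condition of entry. In fed animals, 131 of the 145 genes had a lower mean CPM in labelled-deficient libraries than in wild type and 14 had a higher one (9 on the TMM scale). The labelled-deficient mean was 38.4% of the wild-type mean in the median, with quartiles of 27.3% and 59.5%, and was at least 2-fold lower in 94 genes and at least 4-fold lower in 35. The median log2 difference on the TMM scale was -1.68, beside -0.08 over all genes tested and -1.71 for the 200 genes with symbols. In fasted animals members lay on both sides of equality: 83 genes were lower and 62 higher in labelled-deficient libraries, with a median of 88.9% of wild type and quartiles of 45.2% and 162%.

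The ratio of fed to fasted mean CPM was accordingly smaller in labelled-deficient libraries, with a median of 3.96 over 144 genes, beside 8.24 in wild type, where at least 4 was required. The ratio was larger in labelled-deficient libraries for 21 genes. In labelled-deficient libraries alone, 118 members reached 5 CPM when fed and 68 met both limits. In all, 103 sequence-named protein-coding genes met both limits there.

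**Figure D5:**
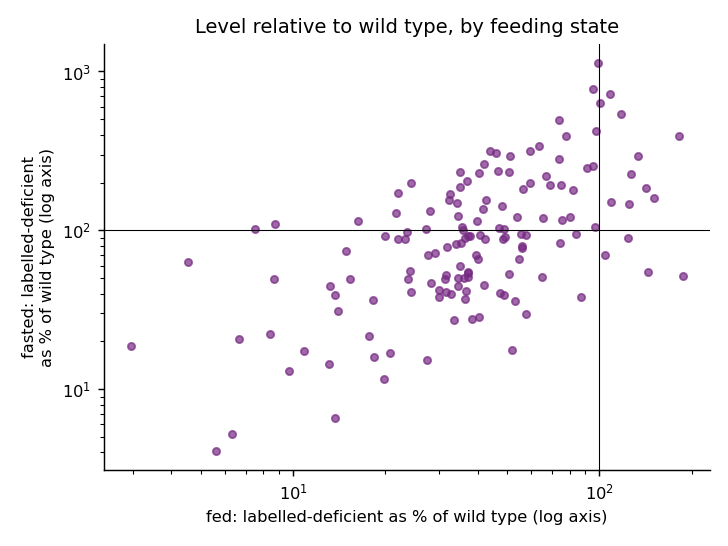
Labelled-deficient mean CPM as percent of the wild-type mean, fasted (vertical) against fed (horizontal), on log axes. Points are genes, lines mark equal levels, and genes with a mean of 0 in any group concerned are not drawn. Most points lie left of the vertical line, and they spread to both sides of the horizontal one.

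Of the 6 members with the lowest fed labelled-deficient level relative to wild type on the log2 scale, 5 belong to a pair of neighbour groups described next. The other, Y47H9C.1 on chromosome I, had no member as a neighbour and stood at 4.53% of fed wild type, with 0.320 ± 0.147 CPM in fed labelled-deficient libraries and 7.07 ± 0.914 CPM in fed wild type (SD, n = 4). F56A4.3, on chromosome V at bases 2453414 to 2456147, was without reads in labelled-deficient animals, fasted or fed. In wild type it had 2.05, 2.91, 1.24 and 1.03 CPM fasted and 24.0, 37.01, 21.5 and 16.4 CPM fed. Against a floor of 3 reads per library, the level in labelled-deficient animals was lower by a factor of at least 10.9 in the fasted state and at least 187 in the fed state.

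clec-209 (F56A4.2), on the same strand at bases 2459637 to 2460893, was low in both feeding states as well. It had 23.3, 22.1, 22.2 and 23.8 CPM in fasted and 121, 121, 126 and 137 CPM in fed labelled-deficient libraries. Wild type had 445, 412, 445 and 452 CPM fasted and 2035, 2059, 2012 and 1896 CPM fed, so that even fed labelled-deficient libraries lay below fasted wild type. The labelled-deficient level was 5.21% of wild type when fasted and 6.32% when fed, and clec-209 still fell with fasting in labelled-deficient libraries (log2 change -2.52, SE 0.11, edgeR adjusted p = 4.9e-14). irld-35 lies between these genes and is not a member. It averaged 0.462 ± 0.178 CPM fasted and 0.197 ± 0.0569 CPM fed in labelled-deficient libraries, against 3.73 ± 1.15 CPM fasted and 12.4 ± 3.47 CPM fed in wild type (SD, n = 4).

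The 4 genes F01D5.1, F01D5.2, F01D5.3 and F01D5.5 form another such group on chromosome II, at bases 13996958 to 14002300. Each has 2 exons, on the minus strand, and a coding length between 396 and 534 bases. Their fed labelled-deficient means were 13.7%, 6.67%, 5.61% and 2.96% of fed wild type, in that order. F01D5.1 had 0.632, 0.578, 0.477 and 0.365 CPM in fasted and 8.22, 7.05, 8.54 and 4.76 CPM in fed labelled-deficient libraries, against 1.12, 1.27, 1.72 and 1.15 CPM in fasted and 58.8, 58.3, 54.7 and 37.5 CPM in fed wild type.

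All 4 were called lower in fasted labelled-deficient libraries, F01D5.5 on few reads: 1, 1, 3 and 1 reads fasted against 3, 8, 3 and 14 reads fed (log2 change -1.90, SE 0.69, edgeR adjusted p = 0.037). F01D5.2 had 3 reads in all when fasted and 85 when fed, a depth-corrected ratio of fed to fasted of 22.9 with a 95% counting interval of 7.57 to 113. The annotated spans of F01D5.2 and F01D5.3 overlap, so reads may be exchanged between them. The call for F01D5.5 did not hold with limma voom (adjusted p = 0.13) and was lost on leaving out each of 5 of the 8 labelled-deficient libraries in turn. Those are replicates 2 and 4 of the fed group and replicates 1, 2 and 4 of the fasted group, with edgeR adjusted p-values from 0.057 to 0.17.

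At the other end, a few members were higher in fed labelled-deficient libraries than in fed wild type. T16G1.5 had 3.20, 2.37, 2.15 and 2.31 CPM in fasted and 54.1, 51.7, 50.7 and 34.5 CPM in fed labelled-deficient libraries. Wild type had 6.20, 4.79, 4.21 and 4.21 CPM fasted and 29.2, 21.5, 32.6 and 18.7 CPM fed. Both genotypes were thus separate in each feeding state, in opposite order. On the TMM scale the log2 difference to wild type was 0.61 (SE 0.16) when fed and -0.93 (SE 0.21) when fasted.

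Y37H2A.14 was higher than in wild type in both states, at 32.0 ± 2.56 CPM fasted and 122 ± 22.3 CPM fed in labelled-deficient libraries, against 8.18 ± 0.567 CPM fasted and 67.02 ± 5.58 CPM fed in wild type (SD, n = 4). H43E16.1, F42A10.7 and T19D12.4 had log2 differences of 0.30, 0.22 and 0.21 when fed, with SEs of 0.17, 0.16 and 0.09. F45D11.14 followed with 0.12 (SE 0.47). Its fasted wild-type replicate 3 is listed at 0, where the other 3 had 5.63 to 9.28 CPM.

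Some members had a fasted labelled-deficient level well above fasted wild type. F13B6.3 was at 776% and cpg-18 at 632% of fasted wild type, and K11H12.4 had the highest value of the set, 1125%. K11H12.4 and B0024.4, named after their values were seen, had fed levels that overlapped between the genotypes and fasted levels that did not. K11H12.4 had 12.7, 11.9, 12.5 and 12.4 CPM in fasted and 42.5, 42.8, 35.2 and 41.1 CPM in fed labelled-deficient libraries, against 1.51, 0.879, 0.813 and 1.20 CPM in fasted and 51.2, 40.8, 37.96 and 33.8 CPM in fed wild type. It fell with fasting in labelled-deficient libraries all the same (log2 change -1.76, SE 0.14, edgeR adjusted p = 6.5e-10). B0024.4 had 128 ± 22.8 CPM in fasted and 208 ± 58.8 CPM in fed labelled-deficient libraries, against 17.6 ± 2.16 CPM in fasted and 192 ± 69.6 CPM in fed wild type (SD, n = 4).

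The claudin-like genes, members of a family of membrane proteins at cell contacts, were near wild type when fed. clc-11 (F44G3.10) and clc-19 (T24C4.4) stood at 95.1% and 127% of fed wild type, and both fell with fasting in labelled-deficient libraries, by 2.39 (SE 0.18) and 1.66 (SE 0.15) on the log2 scale. The cathepsin A-like protease gene ctsa-1.2 (F13D12.6) differed more, with 1.82 ± 0.351 CPM in fasted and 11.9 ± 0.762 CPM in fed labelled-deficient libraries, against 8.19 ± 0.198 CPM in fasted and 141 ± 23.0 CPM in fed wild type (SD, n = 4). Its span overlaps gpb-1. The carboxylesterase genes cest-13 and cest-2.2 fell with fasting in labelled-deficient libraries, with log2 changes of -1.50 and -0.79.

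Features that the choice did not use included position. Of the 145 genes, 48 lie on chromosome V and 42 on chromosome IV, which is 33.1% and 29.0% of the set, against 17.9% and 16.3% of the 9618 protein-coding genes at the same fed level. Chromosome I holds 3 of them (2.07%, against 17.6%). The 200 genes with symbols under the same limits had 37% on chromosome V, 20.5% on IV and 6% on I, so a high share on V and a low share on I were seen in both sets. The coding length was 1023 bases in the median against 1176, and both sets had a median of 6 exons. These shares are descriptions of a set that contains clusters of neighbours.

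With starts no more than 20 kb apart, 41 members fell into 17 runs of neighbours, of which 4 held 3 or more. The run of F01D5 genes is described above. On chromosome IV, K08D8.3, K08D8.4 and K08D8.5 lie within bases 12903785 to 12912129 on the minus strand, and changed by -2.75 (SE 0.22), -4.76 (SE 0.18) and -1.56 (SE 0.13) on the log2 scale in fasted labelled-deficient libraries, all called lower by edgeR.

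The second run on chromosome IV, at bases 12962808 to 12991843, holds F55G11.8, F55G11.2, F55G11.4 and K10D11.5. The 3 F55G11 genes each have 8 exons and a coding length of 1023 bases, and dod-22 and dod-17, known as defence-related genes under the control of insulin signalling, lie in the same interval. F55G11.4 had 1.90, 1.21, 1.15 and 1.64 CPM in fasted and 12.59, 9.25, 10.5 and 11.46 CPM in fed labelled-deficient libraries, against 4.58, 4.05, 5.88 and 4.51 CPM in fasted and 82.6, 78.3, 82.5 and 69.7 CPM in fed wild type. It fell with fasting in labelled-deficient libraries (log2 change -2.92, SE 0.17, edgeR adjusted p = 3.4e-12).

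The other genes of this run had smaller log2 changes in labelled-deficient libraries. F55G11.2 changed by -1.60 (SE 0.48, edgeR adjusted p = 0.014) on the log2 scale and F55G11.8 by -0.75 (SE 0.24, edgeR adjusted p = 0.018), and K10D11.5 was not called (-0.25, SE 0.12, edgeR adjusted p = 0.11). The call for F55G11.8 was lost with limma voom (adjusted p = 0.055) and without fed replicate 3 (edgeR adjusted p = 0.051) or fasted replicate 4 (edgeR adjusted p = 0.057). Between them dod-17 was lower in fasted labelled-deficient libraries (-1.49, SE 0.29, edgeR adjusted p = 0.00038), dod-22 was not called (-0.42, SE 0.54, edgeR adjusted p = 0.57) and K10D11.2 was higher (1.99, SE 0.21, edgeR adjusted p = 6.7e-08).

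On chromosome V, R13D7.2 is followed by F18E3.11, F18E3.12 and F18E3.13 within bases 7409899 to 7416433. The 3 F18E3 genes have 1 exon and coding lengths of 270, 267 and 267 bases. F18E3.12 had 0.801, 0.636, 1.01 and 1.28 CPM in fasted and 24.2, 19.4, 21.8 and 15.01 CPM in fed labelled-deficient libraries, against 1.12, 0.928, 0.861 and 1.00 CPM in fasted and 38.9, 38.1, 45.4 and 22.5 CPM in fed wild type. It changed by -4.48 (SE 0.23), F18E3.11 by -3.28 (SE 0.23) and F18E3.13 by -2.99 (SE 0.20) on the log2 scale in fasted labelled-deficient libraries. Their fed labelled-deficient levels were 74.2%, 55.5% and 75.7% of fed wild type in the order of their names. R13D7.2 changed by -0.66 (SE 0.24, edgeR adjusted p = 0.039). That call was lost with limma voom (adjusted p = 0.056), with library size as the only scaling (0.080) and without fed replicate 1 or 3 or fasted replicate 2, 3 or 4 (edgeR adjusted p-values from 0.073 to 0.14).

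In all, 17 other protein-coding genes lie between members of a run. Of 16 tested, 7 were lower and 2 higher in fasted labelled-deficient libraries, where 15.7% of all genes tested were lower and 19.6% higher. C17H12.6, left out by the rule, dod-17 and irg-5 met the same wild-type limits as the members. Of these, C17H12.6 and dod-17 were among the 7 lower. The few genes between members were not tested as a set. irg-5, an infection response gene used as a reporter of the intestinal p38 pathway, lies between F35E12.6 and F35E12.10. It was not called there (log2 change 0.06, SE 0.21, edgeR adjusted p = 0.86), at 2.09 ± 0.185 CPM in fasted and 1.92 ± 0.151 CPM in fed labelled-deficient libraries, against 1.93 ± 0.522 CPM in fasted and 26.2 ± 6.58 CPM in fed wild type (SD, n = 4). Its neighbours fell, F35E12.6 by 3.22 (SE 0.12) and F35E12.10 by 1.46 (SE 0.14) on the log2 scale.

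For comparison, lists of genes with symbols were counted in the same contrast, where 15.7% of all genes tested were lower and 19.6% higher. Of 28 defence effectors, 22 were lower and 4 higher in fasted labelled-deficient libraries, with a median log2 change of -1.50. Among them dod-21 had -6.07 and lys-2, a lysozyme, had -5.64, while fmo-2, a flavin monooxygenase induced by fasting, had 3.72. The fasted labelled-deficient level of dod-21 was near the floor of 3 reads, at 0.121 ± 0.129 CPM. Fed labelled-deficient libraries had 8.27 ± 1.78 CPM of dod-21 (SD, n = 4). Of 17 genes listed under yolk and fat synthesis, acdh-1 among them, 10 were lower and 4 higher. The vitellogenin vit-3 had the largest fall (-6.57) and pod-2 the largest rise (0.87). Other vitellogenins differed: vit-1 and vit-4 fell by 2.90 and 6.21 on the log2 scale, and vit-5 by 1.01. vit-2 (0.20) and vit-6 (-0.08) were not called.

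Tissue markers were counted beside the same shares of all genes tested, 15.7% lower and 19.6% higher. Their part in the results was not tested. Body muscle had 9 of 10 markers lower and 0 higher, with a median of -1.31, epidermis and cuticle 6 of 11 lower and 0 higher, and intestine 5 of 12 lower and 3 higher. Germline had 0 of 12 lower and 1 higher, oocyte and eggshell 2 of 12 lower and 0 higher, sperm 1 of 5 lower and 1 higher, zygotic embryo 0 of 12 lower and 4 higher, and neuron 1 of 10 lower and 1 higher. The shares lower for oocyte and eggshell (16.7%), sperm (20%) and neuron (10%) were near that of all genes tested. No marker was without reads in every library. Summed intestinal markers were at 466 to 501 TPM in fasted and 977 to 1088 TPM in fed labelled-deficient libraries, against 1233 to 1364 TPM in fasted and 2257 to 2762 TPM in fed wild type. By CPM, asp-1 and cpr-6 led them, at 754 and 379 in fed labelled-deficient libraries and 2659 and 1137 in fed wild type. The other markers varied, from vha-6 (53.4 against 206 CPM) to ifb-2 (79.3 against 82.4 CPM). Mean CPM was higher in labelled-deficient libraries than in wild type for elt-7 and erm-1 when fed. When fasted, it was higher for act-5, ifb-2 and erm-1. All other intestinal markers were lower. Summed germline markers were at 1646 to 2044 TPM in fasted and 1250.2 to 1931 TPM in fed labelled-deficient libraries, against 632 to 796 TPM in fasted and 648 to 1017 TPM in fed wild type. Summed epidermal markers were at 264 to 302 TPM in fasted and 3437 to 4535 TPM in fed labelled-deficient libraries, against 820.1 to 915 TPM in fasted and 7614 to 11446 TPM in fed wild type. The collagens col-19, col-119 and col-140 led them, at 567, 2344 and 1584 CPM in fed labelled-deficient libraries. Summed oocyte and eggshell markers were at 1963 to 2672 TPM in fasted and 2058 to 3194 TPM in fed labelled-deficient libraries. In wild type they were at 2339 to 2647 TPM fasted and 5390 to 6912 TPM fed, led by perm-2 and perm-4 (2144 and 3711 CPM fed). In fed labelled-deficient libraries perm-2 and perm-4 were lower, at 374 and 612 CPM. Every other marker of this list went the other way, with a higher mean CPM in fed labelled-deficient libraries than in fed wild type. Examples are puf-5 (658 against 432 CPM) and rme-2 (355 against 221 CPM).

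The limits of the choice had no gap around them. Just inside the ratio limit lay R09B5.11 with 4.02, T19D12.4 with 4.05 and ZK185.3 with 4.07, and just outside it T21B6.3 with 3.97, F55H12.4 with 3.94 and C50B6.7 with 3.89. Just inside the limit on the fed wild-type level lay F55G11.2 with 5.01, T20D4.5 with 5.40 and Y22D7AL.11 with 5.602 CPM, and just outside it F25A2.1 with 4.99, F52E1.2 with 4.87 and H25K10.1 with 4.56 CPM. The 3 inside the ratio limit were all called lower in fasted labelled-deficient libraries, with log2 changes of -0.77, -1.68 and -1.02 in that order.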

How the data were processed

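The deposited gene table holds estimated counts for 21982 genes in 16 libraries, and the authors also deposited 1 Salmon quantification per library with TPM values per transcript, per the file headers. The submitters' processing notes name Salmon 1.9.0, FastQC 0.11.8, MultiQC 1.19, R 4.3.2, DESeq2 and the builds WBcel235 and ce11. RNA was selected for poly(A) and read as pairs of 150 bases, per the labels. Strand use is not given in the sources used here, so overlapping genes (32 of the 145 members overlap another) are uncertain, as are close family members.

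CPM were computed on the total of each library, the scale of the rule that chose the genes. Depth was 16446081 to 27792762 estimated reads per library, and intervals and floors cover counting error only. TPM were summed per gene. For tests, estimated counts were rounded to whole numbers, filtered with filterByExpr by group, scaled by TMM (mean factors 1.07 fasted and 1.04 fed for labelled-deficient, 1.07 fasted and 0.843 fed for wild type) and fitted with edgeR 4.0.16 (quasi-likelihood, robust, 1 coefficient per group, all libraries) in R 4.3.3. P-values are two-sided, adjusted by Benjamini and Hochberg over 15840 genes, with a threshold of 0.05. Log2 changes are on the TMM scale, so those involving fed wild type differ from ratios of CPM. DESeq2 1.42.0, limma 3.58.1 voom, other scalings, filters, a replicate block and left-out libraries were tried. The script was tested on simulated counts.

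The members and lists were chosen with earlier results of these data known. Genes were named by a rule: highest TPM, largest wild-type ratio, largest and smallest fasting change in labelled-deficient libraries, extreme fed differences between genotypes, those next to the limits, runs of at least 3 neighbours, and the targeted genes. Family members with a symbol, genes between neighbours, F35E12.6 and F35E12.10 were added after their values were seen. Positions come from the WBcel235 annotation of Ensembl. Protein and promoter sequences were not analysed here.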

Additional observations from a re-analysis of the deposited data

Results flagged for a closer look

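Within groups of 4 libraries, 1 library stood far from the other 3 in 18 of 204 groups looked at for the named members, where chance gives about 1 in 20. All values are CPM, with the range of the other 3 libraries of the group after them.

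In fasted labelled-deficient libraries, replicate 1 stood apart for F01D5.2 (0.126, others 0). Replicate 2 did for C32H11.9 (0.0578, others 0) and ZK185.3 (2.31, others 2.61 to 2.66). Replicate 3 did for F01D5.5 (0.179, others 0.0422 to 0.0608) and replicate 4 for nspg-6, F56C9.7 (20.7, others 22.7 to 23.1). Those for F01D5.2, C32H11.9 and F01D5.5 rest on 1 to 3 reads.

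In fed labelled-deficient libraries, replicate 2 was high for F59A7.5 (3.09, others 2.61 to 2.67) and K08D8.3 (6.19, others 5.15 to 5.31). Replicate 4 was low for C45B2.1 (9.33, others 16.4 to 17.8) and F20A1.1 (10.2, others 14.8 to 15.7).

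In fasted wild type, replicate 2 was low for clec-209, F56A4.2 (412, others 445 to 452), and replicate 3 was high for F01D5.5 (0.622, others 0.391 to 0.401). Replicate 4 was low for C45B2.1 (3.35, others 4.75 to 5.02) and high for F55G11.2 (0.501, others 0.0977 to 0.143).

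In fed wild type, replicate 1 was high for T19D12.4 (123, others 102 to 104) and R13D7.2 (14.97, others 8.45 to 9.45), and replicate 2 was high for F20A1.1 (40.4, others 22.3 to 23.8). Replicate 4 was low for Y37H2A.14 (58.7, others 69.4 to 70.1) and F18E3.13 (36.9, others 68.3 to 69.97).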

How the results depend on the processing

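The number of members called lower in fasted labelled-deficient libraries was 130 and ran from 126 to 130 without 1 labelled-deficient library. Over the other fits it ran from 127 to 133 of those tested, except 95 of 104 under a filter of 5 CPM over the labelled-deficient libraries, where fewer genes were tested, and 124 at an adjusted p of 0.01. Of the 130, 125 were called in each of the 16 alternative fits in which they were tested; R13D7.2, F01D5.5, F55G11.8, F26C11.1 (without fed replicate 2, edgeR adjusted p = 0.072) and E04D5.4 (without fasted replicate 4, edgeR adjusted p = 0.060) were lost in some. No direction was reversed for any named member. All genes called numbered 5594 and fell to 3564 at an adjusted p of 0.01. Without 1 labelled-deficient library they ran from 4577 to 5603. The median log2 change of members was -1.99 (-2.12 to -1.99 without 1 library), and -1.79 when members were chosen by CPM scaled with TMM, which gave 189 members with 166 called lower. A wild-type ratio of 8 gave 74 members, and leaving out 1 wild-type library gave 135 to 158. The summed level in fasted labelled-deficient libraries was 0.179% by TPM.

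Whether replicate numbers pair the samples is not settled by these data. Deviations of same-numbered fasted and fed libraries correlated at 0.04, 0.01, 0.12 and 0.23 in labelled-deficient animals. In wild type they correlated at 0.07, 0.08, 0.08 and 0.34. These values were all positive, but not every library correlated best with its own number. Replicate 4 had the lowest summed level of the members in each group. With a replicate block, 133 members were lower and 2 (F13B6.3 and C45E5.4) were higher, and 7406 genes were called in all. Genes with few reads in labelled-deficient libraries, such as F01D5.5 and Y47H9C.1, have wide standard errors (0.69 and 0.44 on the log2 scale).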
